A study of Diplotaxodon limnothrissa and Petrotilapia genalutea and Rhamphochromis longiceps with 60 samples.

Results

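The genes described here write, read and remove methylation of cytosine in DNA, and they were taken from total transcriptomes (RNAseq) of liver and skeletal muscle of wild Lake Malawi cichlids. They were chosen by symbol alone: every gene listed as dnmt followed by a digit, tet1, tet2 or tet3, uhrf1 or uhrf2, or with a symbol starting with tdg. The rule found 5 of the 29676 genes listed, namely dnmt1, dnmt3a, tet2, uhrf1 and uhrf2. No gene was listed under the symbols tet1, tet3, dnmt3b or tdg, and related genes that the annotation gives only a LOC number were not analysed here.

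The fish were adult males of 4 species, bought dead from fishermen, and no group received a treatment. Both *Diplotaxodon limnothrissa* (DL), which hunts at depth, and *Rhamphochromis longiceps* (RL), which feeds on fish, live in open water. *Maylandia zebra* (MZ) and *Petrotilapia genalutea* (PG) belong to the Mbuna, which graze algae on rocks. Values were analysed for 11 livers (3 DL, 2 RL, 3 MZ and 3 PG) and 12 muscles (3 of each species), each from homogenised tissue. The liver of RL fish 1 was not analysed here, so that both tissues were compared in 11 fish. All libraries were quantified by the authors against the transcriptome of MZ, as TPM, the level of a gene's transcripts per unit of their length, relative to a fixed library total. The authors report the sequencing depth of their libraries, but a TPM value carries no read number, so the reads behind a single value are unknown. In bulk tissue a lower level cannot be told apart from fewer cells of the type that makes the transcript.

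In vertebrates, DNA methyltransferase 1 (DNMT1) copies methylation onto the newly made strand after replication, and UHRF1 brings it there by binding CpG sites methylated on a single strand. DNMT3 enzymes place methylation on unmethylated sites. TET enzymes oxidise 5-methylcytosine to 5-hydroxymethylcytosine and further products, which base excision repair can replace with cytosine, and UHRF2, a relative of UHRF1, is known from mammals to bind 5-hydroxymethylcytosine. These roles were worked out mostly in mammals and are given as background.

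The libraries carried the markers of their labelled tissue. Summed over the 5 hepatocyte markers that were listed (fgb, fgg, tf, apob and hnf4a), levels lay between 9590 and 31660 TPM in livers and between 3.45 and 18.9 TPM in muscles. The 2 listed markers of skeletal muscle (myl1 and actn3) summed to between 1.66 and 100.3 TPM in livers and between 5411 and 29158 TPM in muscles. The highest of these livers was DL replicate 2, with 77.9 TPM of myl1, against at most 11.7 TPM in any other liver. The 6 listed leukocyte markers summed to 39.2 to 120.1 TPM in DL livers, 46.5 to 52.1 in RL livers, 168 to 457 in MZ livers and 195 to 276 in PG livers, and to 86.8 to 213, 48.5 to 59.4, 209 to 258 and 137 to 386 TPM in DL, RL, MZ and PG muscles. Both listed erythrocyte markers (gata1 and epb41) together reached at most 0.403 TPM in a muscle. In livers they summed to 0 to 0.224 TPM in DL, 0 to 1.78 in RL, 0.175 to 2.46 in MZ and 2.64 to 6.51 TPM in PG. Of these, gata1 was lower in DL than in PG livers (-2.33, adjusted p = 0.00644 by limma). The 3 germ cell markers reached at most 0.289 TPM in a liver and 0.692 TPM in a muscle, and no exocrine pancreas or adipocyte marker of the lists was found by symbol. The 10 most abundant genes held 22.6% to 51.4% of the TPM of a liver and 27.8% to 39.8% of that of a muscle, with the highest share in MZ liver replicate 1.

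Between the most and the least abundant of the 5 genes, levels differed far more than any 1 of them differed between species. Levels of tet2, uhrf2 and dnmt3a lay closer together, and dnmt3a means in liver ran from 1.34 TPM in MZ to 3.88 TPM in DL. Averaged over 11 livers and over 12 muscles, tet2 stood at 5.14 ± 1.71 TPM in liver and 10.5 ± 4.10 TPM in muscle (SD), uhrf2 at 4.64 ± 1.56 and 6.59 ± 1.72 TPM, dnmt3a at 2.25 ± 1.67 and 3.78 ± 1.46 TPM, dnmt1 at 0.940 ± 0.435 and 1.2 ± 0.319 TPM, and uhrf1 at 0.256 ± 0.220 and 0.166 ± 0.148 TPM. The full order tet2, uhrf2, dnmt3a, dnmt1, uhrf1 was seen in 16 of 23 libraries, 6 livers and 10 muscles. Among neighbours in this order, tet2 was above uhrf2 in 18 of 23 libraries, uhrf2 above dnmt3a in 22 and dnmt3a above dnmt1 in 22, whereas dnmt1 was above uhrf1 in all 23. In RL liver replicate 2, dnmt3a (3.97 TPM) was above both uhrf2 (3.43 TPM) and tet2 (3.68 TPM). In terms of all genes listed, the median liver had 79.4% of genes below tet2 and the median muscle 85.5%, while the figures for dnmt1 were 55.1% and 54.1%.

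**Figure D1:**
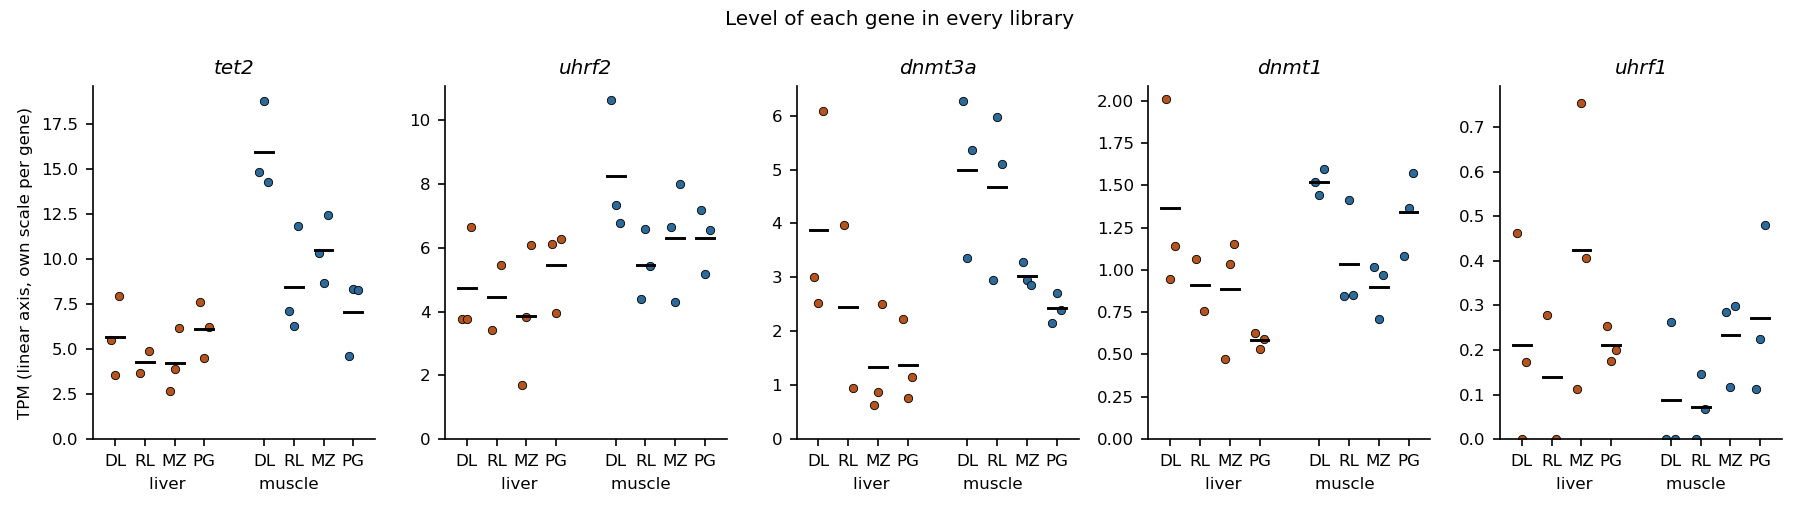
TPM of the 5 genes (linear axis, own scale in each panel) in every library, with liver groups on the left and muscle groups on the right of each panel. Each point is 1 library and each bar a group mean, and all 3 DL muscles lie above the other 9 muscles for tet2.

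tet2, the only TET gene listed under its symbol, was the most abundant of the 5 and the one with the clearest difference between tissues. DL livers had 5.50, 3.54 and 7.94 TPM, RL livers 3.68 and 4.87 TPM, MZ livers 2.66, 3.88 and 6.17 TPM and PG livers 7.63, 4.49 and 6.21 TPM. DL muscles had 14.8, 18.8 and 14.3 TPM, RL muscles 7.11, 6.31 and 11.9 TPM, MZ muscles 10.4, 8.71 and 12.5 TPM and PG muscles 4.6, 8.33 and 8.29 TPM. Livers lay wholly below muscles in DL, RL and MZ and overlapped them in PG. Across all tested genes, livers lay wholly below muscles for 33.8% in DL, 36.5% in RL and 40.6% in MZ. Within fish, tet2 was lower in the liver of 10 of 11, the exception being PG fish 1, and 33.7% of tested genes were lower in liver in at least 10 of the 11 fish.

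Liver was compared with muscle over the mean of the 4 species (limma on log2(TPM + 1), Benjamini-Hochberg adjusted p under 0.01), a test that 55.4% of the 20549 genes passed (38.4% lower and 17% higher in liver). Of the 4 members tested, tet2 and dnmt3a passed, both lower in liver. uhrf1 never reached 1 TPM and was not tested. The log2 difference of tet2 was -0.89 ± 0.16 (SE, adjusted p = 7.57e-05 by limma), with group means of 5.07 TPM in liver and 10.5 TPM in muscle. The median of all genes tested was itself shifted to -0.27, so tet2 lay 0.61 below it (difference minus median of -0.61).

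Part of this contrast moved with the scaling of the libraries. Among all calls, 30.6% were higher in liver on deposited TPM, 45.2% after quantile normalisation and 50.5% after median ratio scaling, which moved the median of all genes to -0.02 and 0.05. The difference of tet2 was then -0.56 (adjusted p = 0.00101 by limma) after quantile normalisation and -0.36 (adjusted p = 0.0236) after median ratio scaling, so that it no longer passed in the last. Relative to the median of all genes, tet2 stood at -0.53 and -0.41 under these scalings. Leaving out each library in turn gave -0.95 to -0.82 for tet2, with adjusted p from 3.15e-05 to 0.000413 (limma).

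By species, tet2 passed the test in DL (-1.40 ± 0.31, adjusted p = 0.0011) and in MZ (-1.18 ± 0.31, adjusted p = 0.00427), with 34.7% of genes called in DL and 35.9% in MZ. It did not pass in RL (-0.80 ± 0.35, adjusted p = 0.0772, 30.4% of genes called) or in PG (-0.17 ± 0.31, adjusted p = 0.723, 31.6% of genes called). The DL difference of tet2 passed under every alternative tried, with -1.24 after quantile normalisation and -0.96 after median ratio scaling (adjusted p = 0.000506 and 0.00505 by limma), and it was -1.15 to -1.64 with each library left out. The MZ difference did not pass after quantile normalisation (-0.54, adjusted p = 0.0971) or median ratio scaling (-0.35, adjusted p = 0.299), nor without MZ liver replicate 1 (-0.95, adjusted p = 0.0303), MZ liver replicate 2 (-1.15, adjusted p = 0.0151), MZ muscle replicate 1 (-1.18, adjusted p = 0.013) or MZ muscle replicate 3 (-1.06, adjusted p = 0.0234). The PG value of tet2 changed sign to 0.18 after median ratio scaling and to 0.0045 without PG liver replicate 2.

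Whether the contrast between tissues differed between species was tested as an interaction over the 6 pairs of species. None of the 4 members passed in any pair, where 9.49% of tested genes passed in at least 1. At an unadjusted p under 0.05, 2 of 24 interactions were reached, both for tet2. That is 1 of 4 members, where 10753 of 20549 tested genes reached this in at least 1 pair. The contrast of tet2 was more negative in DL than in PG by 1.23 (log2 difference of -1.23 ± 0.44, limma unadjusted p = 0.0124, adjusted p = 0.0865) and in MZ than in PG by 1.01 (-1.01 ± 0.44, unadjusted p = 0.0349, adjusted p = 0.215). The tissue contrast of tet2 is therefore not shown to differ between species, although it was called in DL and MZ only.

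**Figure D2:**
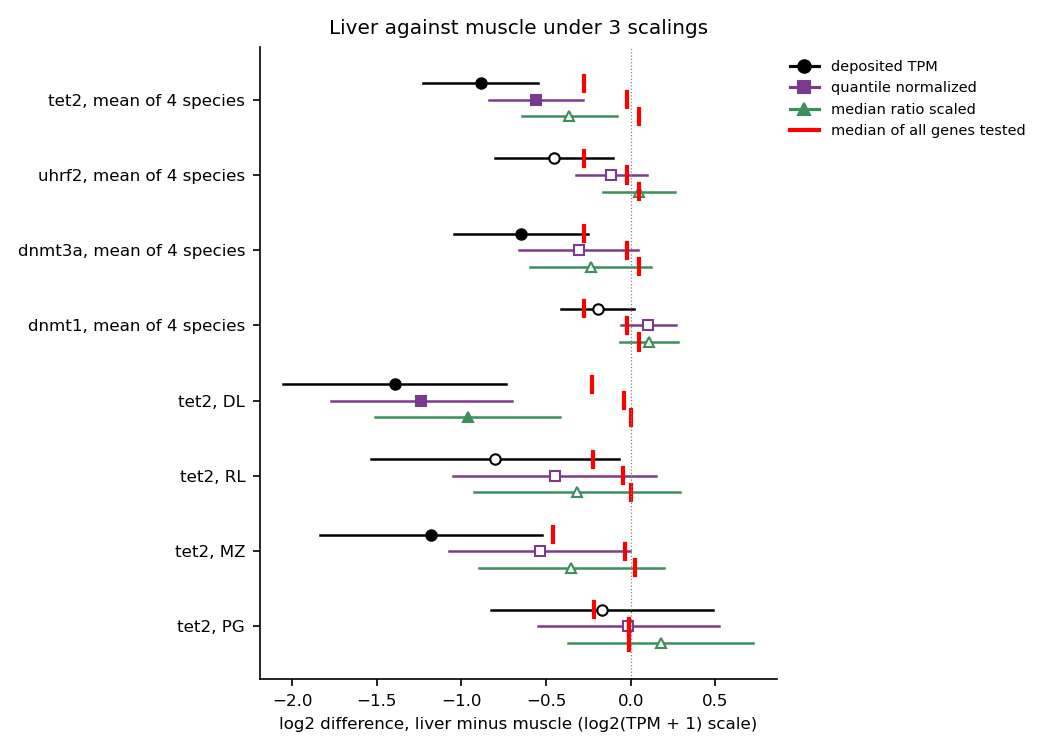
Log2 difference of liver minus muscle with 95% intervals, for 4 genes over the mean of the 4 species and for tet2 in each species, under deposited, quantile normalised and median ratio scaled TPM. Filled symbols have an adjusted p under 0.01 and red ticks are the median of all genes tested: tet2 in DL is filled under each scaling, from -1.40 to -0.96.

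Between species, tet2 means in liver lay between 4.24 TPM in MZ and 6.11 TPM in PG. Muscle means were 16 ± 2.47 TPM in DL, 10.5 ± 1.89 in MZ, 8.43 ± 3.0 in RL and 7.07 ± 2.14 TPM in PG (SD, n = 3 each). All 3 DL muscles lay above all 9 other muscles, which was so for 4.73% of the 18101 genes tested in muscle. The largest muscle difference was DL over PG, at 1.10 ± 0.28 on the log2 scale (adjusted p = 0.0156 by limma), short of the threshold of 0.01. It passed (adjusted p = 0.00938 by limma) once genes averaging under 5 TPM were set aside. The differences of DL over RL (0.88 ± 0.28, limma adjusted p = 0.134) and over MZ (0.56 ± 0.28, adjusted p = 0.215) did not pass. Among the other species each muscle difference had a 95% interval that held 0 (RL-MZ -0.32 ± 0.28, RL-PG 0.22 ± 0.28, MZ-PG 0.54 ± 0.28, SE). All 3 MZ muscles lay above all 3 PG muscles, which was so for 15.8% of tested genes. Livers gave tet2 differences between -0.47 and 0.35 over the 6 pairs of species, each with a 95% interval that held 0. The liver intervals reached down to -1.29 (RL-PG) and up to 1.16 (DL-RL). For DL over PG itself, the liver difference of tet2 was -0.12, with a 95% interval from -0.90 to 0.66. That interval ended below the muscle difference of 1.10 for the same pair.

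**Figure D3:**
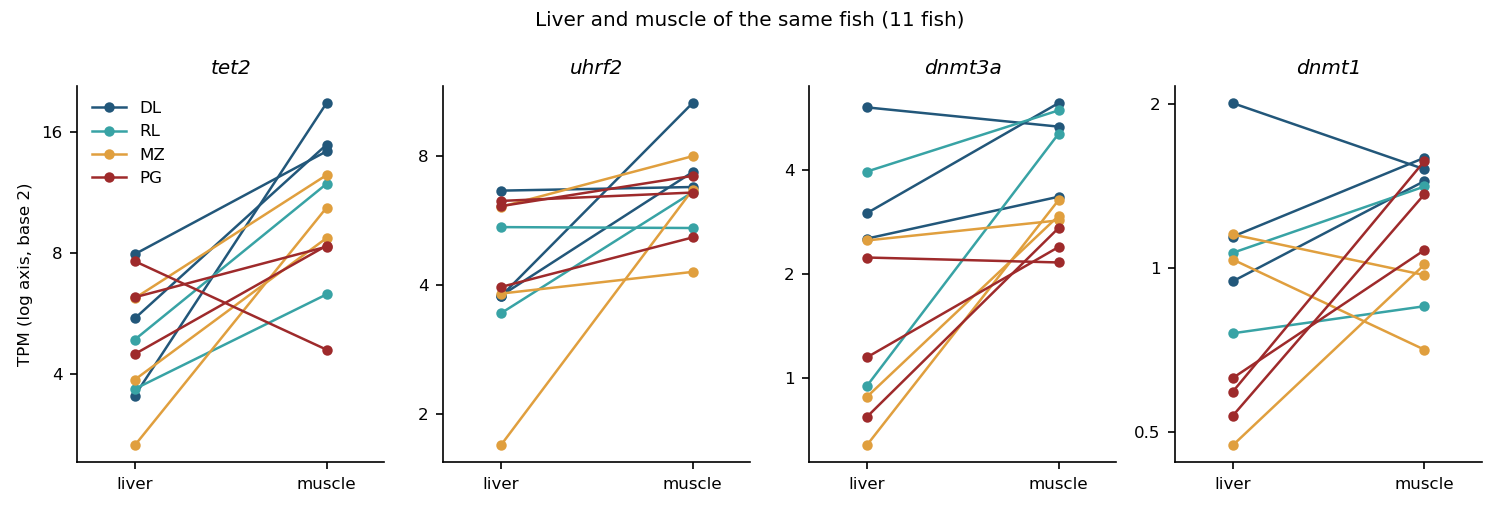
TPM (log axis) of 4 genes in liver and muscle of the same fish, with 1 line per fish and colours for species. The lines of tet2 climb towards muscle in 10 of 11 fish, and those of dnmt1 in 8 of 11. Of all tested genes, 33.7% were lower in liver in at least 10 fish and 47.5% in at least 8.

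dnmt3a, a gene of the de novo methyltransferases, was the second member called between tissues, and its call depended on the scaling and on single libraries. DL livers had 3.0, 2.53 and 6.09 TPM, RL livers 3.97 and 0.945 TPM, MZ livers 0.636, 0.879 and 2.50 TPM and PG livers 2.23, 0.769 and 1.15 TPM. DL muscles had 6.27, 3.35 and 5.36 TPM, RL muscles 2.96, 5.97 and 5.11 TPM, MZ muscles 3.28, 2.95 and 2.86 TPM and PG muscles 2.16, 2.72 and 2.39 TPM. Only in MZ did livers lie wholly below muscles, where 40.6% of tested genes showed this. Within fish dnmt3a was lower in the liver of 9 of 11, against 41% of tested genes lower in liver in at least 9. Among livers the highest level was in DL replicate 3 and the lowest in MZ replicate 1.

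The difference of dnmt3a over the mean of the 4 species was -0.65 ± 0.19 (adjusted p = 0.00545 by limma), or -0.37 relative to the median of all genes. It did not pass after quantile normalisation (-0.31, adjusted p = 0.117) or median ratio scaling (-0.24, adjusted p = 0.229). The call of dnmt3a was also lost on leaving out any 1 of 9 libraries (DL liver 1 or 2, RL liver 3, MZ liver 1 or 2, PG liver 2, DL muscle 1, RL muscle 2 or 3), with adjusted p between 0.0101 and 0.0305. In no species alone did dnmt3a pass, the largest value being -0.87 ± 0.37 in MZ (adjusted p = 0.0612).

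Between species, dnmt3a had its highest mean in DL in both tissues but passed in no pair. In liver, DL averaged 3.88 ± 1.93 TPM, RL 2.46 ± 2.14 (n = 2), MZ 1.34 ± 1.01 and PG 1.38 ± 0.760 TPM (SD, n = 3 where not given). DL livers lay wholly above MZ livers (1.07 ± 0.44 on the log2 scale, limma adjusted p = 0.114) and PG livers (1.01 ± 0.44, adjusted p = 0.122), a separation in this direction that 27.7% and 26.2% of tested genes showed. In muscle, DL and RL overlapped, with means of 4.99 ± 1.49 and 4.68 ± 1.55 TPM (SD). Their log2 difference was 0.08 ± 0.26 (adjusted p = 0.917 by limma). All 3 PG muscles lay below the 9 others for dnmt3a, which was so for 6.13% of tested genes. The muscle differences of dnmt3a were 0.78 ± 0.26 for DL over PG (adjusted p = 0.0446) and 0.69 ± 0.26 for RL over PG (adjusted p = 0.0673), both short of the threshold.

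dnmt1, the maintenance methyltransferase, was low in every library. DL livers had 2.01, 0.945 and 1.14 TPM, RL livers 1.07 and 0.759 TPM, MZ livers 0.472, 1.04 and 1.15 TPM and PG livers 0.628, 0.535 and 0.593 TPM. DL muscles had 1.52, 1.45 and 1.59 TPM, RL muscles 0.846, 1.41 and 0.851 TPM, MZ muscles 1.02, 0.708 and 0.971 TPM and PG muscles 1.08, 1.37 and 1.57 TPM. It reached 1 TPM in 5 of 11 livers and 8 of 12 muscles. The liver-muscle difference of dnmt1 was -0.20 ± 0.10 (adjusted p = 0.107 by limma) and its sign turned under both rescalings (0.10 after quantile normalisation, 0.11 after median ratio scaling), so no direction is given. The 3 PG livers lay wholly below the 3 PG muscles for dnmt1 (-0.56 ± 0.20, adjusted p = 0.0311), a separation that 34.2% of tested genes showed. Between species no dnmt1 difference passed, and its largest was DL over PG in liver (0.55 ± 0.26, adjusted p = 0.15).

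uhrf1, whose product recruits DNMT1, was at the floor of measurement in both tissues. DL livers had 0.464, 0 and 0.173 TPM, RL livers 0.278 and 0 TPM, MZ livers 0.112, 0.755 and 0.408 TPM and PG livers 0.255, 0.176 and 0.201 TPM. DL muscles were listed at 0, 0.263 and 0 TPM, RL muscles at 0, 0.146 and 0.0686 TPM, MZ muscles at 0.285, 0.117 and 0.299 TPM and PG muscles at 0.113, 0.226 and 0.480 TPM. It was thus listed at 0 in 2 livers and 3 muscles, all of DL or RL, and its highest value, 0.755 TPM in MZ liver replicate 2, stayed below 1 TPM. No fold change is given for a gene at this level. In the fit without a filter on low values it also passed no comparison of tissues or of species.

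uhrf2, the relative of UHRF1, was on average the second most abundant member. DL livers had 3.76, 3.77 and 6.64 TPM, RL livers 3.43 and 5.46 TPM, MZ livers 1.69, 3.82 and 6.09 TPM and PG livers 6.11, 3.96 and 6.28 TPM. DL muscles had 10.6, 7.34 and 6.77 TPM, RL muscles 4.40, 6.58 and 5.43 TPM, MZ muscles 6.67, 4.29 and 7.99 TPM and PG muscles 7.19, 5.16 and 6.57 TPM. Livers lay wholly below muscles only in DL, where 33.8% of tested genes showed this. Within fish the liver was lower in 10 of 11, against 33.7% of tested genes lower in liver in at least 10. The liver-muscle difference of uhrf2 was -0.46 ± 0.17 (adjusted p = 0.0226 by limma), which did not pass. It passed without MZ liver replicate 3 (-0.54, adjusted p = 0.00523) and turned to 0.05 after median ratio scaling, so no direction is given. Over the 6 pairs of species, uhrf2 differences lay between -0.49 and 0.31 in liver and between -0.18 and 0.51 in muscle.

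Over all members, 0 of 4 passed between any pair of species in liver, where 11.8% of the 16613 genes tested passed in at least 1 pair, and 0 of 4 in muscle, where 17.7% of 18101 did. At an unadjusted limma p under 0.05, 2 of 24 liver differences were reached, both of dnmt3a, and 4 of 24 muscle differences, of tet2 and dnmt3a. Among all genes tested, 10547 of 16613 reached this in at least 1 pair in liver and 11617 of 18101 in muscle. Of the 4 members, 1 did so in liver and 2 in muscle. Each pair of species alone, the other test run, gave no call in either tissue. The 95% intervals were broad: in liver that of dnmt3a for DL over MZ ran from 0.10 to 2.04, and in muscle that of tet2 for DL over PG from 0.49 to 1.72. Both intervals lay above 0, but they are not adjusted for the number of genes tested. After that adjustment, with 2 or 3 fish a group, neither difference passed the threshold used.

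**Figure D4:**
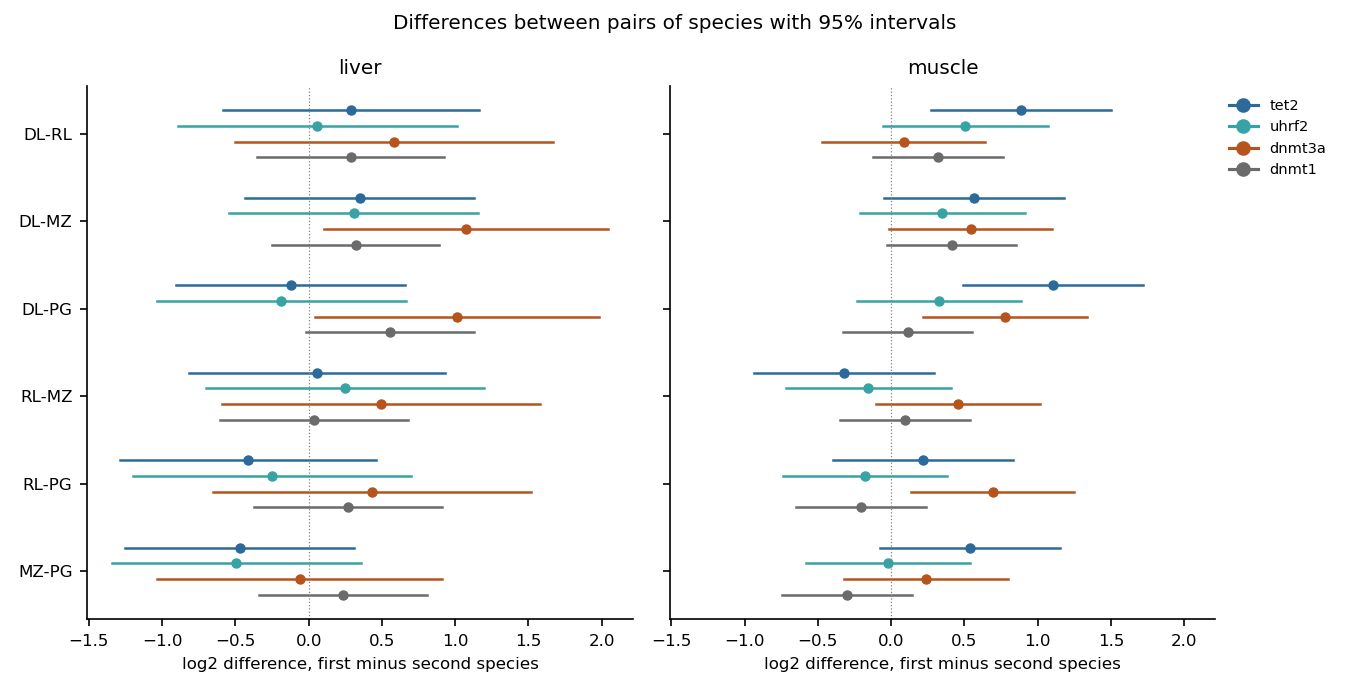
Log2 differences (first minus second species) with 95% intervals for 4 genes in the 6 pairs of species, liver on the left and muscle on the right. The interval farthest from 0 is that of tet2 for DL over PG in muscle, from 0.49 to 1.72, and no difference had an adjusted p under 0.01.

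Levels of tet2 and uhrf2 moved together from liver to liver. Over the 11 livers, Pearson's r of log2(TPM + 1) was 0.90 (permutation p = 0.00027, 0.00324 after adjustment over the 12 relations computed, 6 pairs of members in 2 tissues) and Spearman's rho was 0.88 (permutation p = 0.00076). Without the 2 livers farthest from the median of tet2, r was 0.83, and over deviations from the species means it was 0.90. After median ratio scaling r fell to 0.64. The median r of tet2 with all genes was 0.38 over these livers, and 69 of 16612 genes had a higher r with tet2 than uhrf2 had. In the 12 muscles r of tet2 with uhrf2 was 0.41 (permutation p = 0.191, adjusted p = 0.382), with 4475 of 18100 genes higher. None of the other 11 relations passed an adjusted p of 0.05, and the difference between tissues was not tested.

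The genes with patterns most like each member over all 23 libraries were found by Pearson's r of log2(TPM + 1) among the tested genes, as a description. For tet2 they were LOC101465003 (r = 0.90), LOC101464804 (0.90) and zc3h4 (0.89), for uhrf2 rest (0.90), LOC101487261 (0.88) and ranbp9 (0.88), for dnmt3a mtor (0.93), immt (0.92) and ube4a (0.92), and for dnmt1 pak2 (0.84), ddhd2 (0.82) and dcaf15 (0.80). The median r with all tested genes was 0.29 for tet2, 0.34 for uhrf2, 0.25 for dnmt3a and 0.23 for dnmt1. The 23 points share the split between tissues, the 4 species and the scaling of each library. No member was among the closest genes of another, the nearest being uhrf2 and tet2 (r = 0.75).

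Other genes of DNA methylation were compared between the tissues by lists, whose counts are read against the 38.4% of all genes that were lower and the 17% that were higher in liver. Of the 4 genes tested from the list of methyl-CpG readers and their relatives, 3 were lower in liver and 0 were higher. Their median difference was -1.07 against -0.27 for all genes. mbd4, a glycosylase that removes thymine and uracil opposite guanine at CpG sites, had 0 to 1.41 TPM in livers and 1.52 to 10.1 TPM in muscles (-2.08 ± 0.17, adjusted p = 1.96e-09 by limma). zbtb38, a zinc finger reader, had 0.292 to 1.39 TPM in livers and 1.92 to 6.13 TPM in muscles (-1.64 ± 0.12, adjusted p = 4.26e-10). For both, every liver lay below every muscle, which was so for 13% of tested genes, and they passed under both rescalings, whereas mbd5 (-0.49) passed under neither.

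Of 13 genes tested from the list for excision repair of modified cytosine, which includes mbd4 and the stress-response genes gadd45b and gadd45g, 11 were lower and 1 was higher in liver, with a median of -0.83 against -0.27 for all genes. After median ratio scaling 6 were lower and 1 was higher. polb, the repair DNA polymerase, differed by -1.29 ± 0.14 (adjusted p = 1.31e-07 by limma), parp1, a sensor of strand breaks, by -1.08 ± 0.14 (adjusted p = 7.28e-07) and neil3, a glycosylase, by -1.69 ± 0.14 (adjusted p = 1.8e-09). These passed under both rescalings. Within species, polb was not called in PG, parp1 not in DL, and neil3 in neither of them. The muscle mean of neil3 was 11.2 TPM in MZ and 0.827 to 3.51 TPM in the other species.

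The methyl donor cycle ran the other way. Of 9 genes tested, 5 were higher and 1 lower in liver, with a median of 0.88 against -0.27 for all genes. Under either rescaling 8 were higher and 1 lower. Apart from ahcyl1 and ahcyl2, listed as relatives of ahcy, these genes use or recycle S-adenosylmethionine or handle the folates behind it. No enzyme that makes it was among them. gnmt, glycine N-methyltransferase, which uses up methyl groups in liver, had 25.9 to 417 TPM in livers and 2.93 to 13.5 TPM in muscles (3.99 ± 0.26, adjusted p = 5.53e-11 by limma). ahcy, which clears the methyltransferase product S-adenosylhomocysteine, had 119 to 721 TPM in livers and 13.7 to 35.7 TPM in muscles (3.62 ± 0.17, adjusted p = 1.59e-13). shmt1, which loads 1-carbon units onto folate, was higher in liver over the mean of the 4 species (1.67 ± 0.17, adjusted p = 4.41e-08). Within species shmt1 was called in DL, RL and MZ but not in PG, where its means were 2.38 TPM in liver and 2.28 TPM in muscle.

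Of 3 enzymes tested that bear on the cofactors of TET, 1 was higher and 1 lower in liver, where 55.4% of all genes passed in either direction, with a median of -0.13 against -0.27 for all genes. idh1, which makes the TET cosubstrate 2-oxoglutarate, had 45.0 to 227 TPM in livers and 0.392 to 3.80 TPM in muscles (5.08 ± 0.18, adjusted p = 2.04e-15 by limma). d2hgdh, which removes the TET inhibitor D-2-hydroxyglutarate, was lower in liver (-0.97 ± 0.16, adjusted p = 1.92e-05). Both passed under both rescalings.

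Chromatin partners of the methyltransferases had a median near that of all genes. Of 13 tested, 6 were lower and 0 higher in liver, with a median of -0.34 against -0.27 for all genes, and after median ratio scaling 3 were lower and 3 higher. usp7, a deubiquitinase that stabilises DNMT1 and UHRF1 in mammals, differed by -0.98 ± 0.14 (adjusted p = 3.22e-06 by limma), hdac2, a histone deacetylase, by -1.18 ± 0.15 (adjusted p = 1.35e-06) and zbtb24 by -0.89 ± 0.10 (adjusted p = 1.97e-07), and these 3 passed under both rescalings. The 3 tested CXXC proteins that bind unmethylated CpG (kdm2a, kmt2a and kmt2b) passed as lower in liver on deposited TPM, by -0.47, -0.60 and -0.41, and none passed under either rescaling, where kmt2b changed sign after median ratio scaling (0.10). Of 16 genes matched to the list of DNA replication and division only 8 passed the filter on low values. Of these, 3 were lower in liver (rrm2b, cdt1 and pcna), of which pcna passed under neither rescaling (-0.21 and -0.07). rrm2b was matched by symbol to the listed rrm2 but is a separate gene, so its call does not stand for rrm2.

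**Figure D5:**
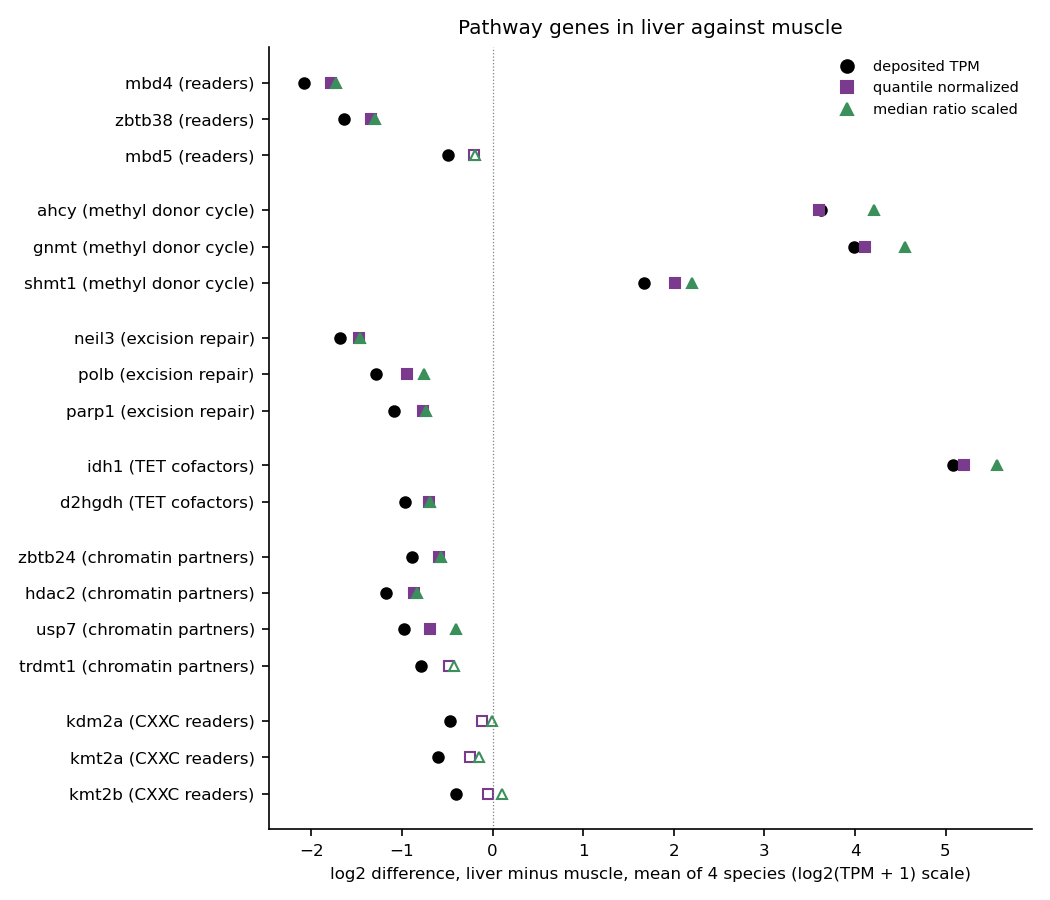
Log2 difference of liver minus muscle over the mean of the 4 species for genes of the DNA methylation pathway, under deposited, quantile normalised and median ratio scaled TPM, with filled symbols for an adjusted p under 0.01. gnmt, ahcy and idh1 lie to the right of 3, mbd4 and zbtb38 to the left of -1, and the CXXC genes are open after rescaling.

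Between species, some pathway genes passed. In liver, 2 of 9 genes of the methyl donor cycle, 2 of 10 of excision repair and 1 of 11 chromatin partners passed in at least 1 pair, against 11.8% of all genes. In muscle 1 of 8, 4 of 13 and 1 of 13 passed, against 17.7% of all genes. No methyl-CpG reader, CXXC protein, TET cofactor enzyme or replication gene passed between species in either tissue. The pathway gene calls named next passed under every alternative in which the gene was tested. nthl1 and neil3 were not tested with a mean of at least 5 TPM.

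nthl1, a glycosylase that starts excision of oxidised bases, was higher in DL. DL livers had 8.11 to 16.5 TPM, RL livers 0.955 to 1.32, MZ livers 0.227 to 0.830 and PG livers 0.222 to 0.253 TPM, so that DL lay wholly above the rest, as was so for 8.4% of genes tested in liver. The differences of nthl1 in liver were 3.0 ± 0.29 for DL over MZ (adjusted p = 0.000183 by limma) and 3.29 ± 0.29 for DL over PG (adjusted p = 7.5e-05). DL muscles had 7.83 to 14.1 TPM and PG muscles 0.322 to 1.94 TPM (2.41 ± 0.32, adjusted p = 0.000537). All species were quantified on MZ transcripts, and the part of this in species differences was not tested.

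shmt1 and mthfd1, both enzymes of 1-carbon folate metabolism, also separated the livers. shmt1 had 51.4 to 106 TPM in DL livers, 33.7 to 67.7 in RL livers, 11.1 to 15.9 in MZ livers and 2.06 to 2.97 TPM in PG livers. Its differences were 4.38 ± 0.38 for DL over PG (adjusted p = 7.5e-05 by limma) and 3.86 ± 0.43 for RL over PG (adjusted p = 0.000352). mthfd1 had 61.7 to 88.2 TPM in DL livers and 8.86 to 13.5 TPM in MZ livers (2.61 ± 0.33, adjusted p = 0.00089). Hepatocyte markers also differed between these livers. Their sum over the 5 listed markers was 22071 to 27111 TPM in DL livers, 9590 to 15269 in RL livers, 12835 to 20240 in MZ livers and 27410 to 31660 TPM in PG livers, and none of the 5 was at 0 in all livers. Of the 5, apob was higher in DL than in MZ (2.76) and PG (3.56) livers, and hnf4a was higher in DL than in PG livers (2.13). Both fgb (-1.60) and fgg (-1.66) were lower in RL than in PG livers. After quantile normalisation fgb and fgg did not pass (adjusted p = 0.0142 and 0.0124 by limma). The part of these markers in the results for shmt1, mthfd1 and nthl1 was not tested.

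In muscle, gadd45g, a stress-induced gene tied to active demethylation in vertebrates, was lower in both pelagic species than in MZ. It had 46.4 to 88.2 TPM in DL muscles, 40.3 to 51.7 in RL muscles, 389 to 550.5 in MZ muscles and 181 to 421 TPM in PG muscles. The differences were -2.64 ± 0.34 for DL-MZ, -3.27 ± 0.34 for RL-MZ and -2.53 ± 0.34 for RL-PG (limma adjusted p = 0.000982, 0.000175 and 0.000373). neil3 had 0.930 to 1.60 TPM in DL muscles, 9.44 to 13.2 in MZ muscles and 0.659 to 0.970 TPM in PG muscles, with differences of -2.42 ± 0.33 for DL-MZ (adjusted p = 0.00126) and 2.73 ± 0.33 for MZ-PG (adjusted p = 0.00128). The leukocyte markers given above also differed between species, and their part in these results was not tested.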

How the data were processed

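Liver and muscle RNAseq of 4 cichlid species was analysed from 2 tables deposited by the authors, which hold TPM for 29676 genes. The authors trimmed reads (Trim Galore), quantified all species with kallisto on the MZ transcriptome (UMD2a annotation) and deposited the values per gene. Since TPM keeps no counts, values were tested as log2(TPM + 1), after dropping genes that reached 1 TPM in fewer than 2 of the libraries fitted, by limma 3.58.1 in R 4.3.3 with a variance trend and Benjamini-Hochberg adjustment over all genes tested (threshold 0.01). Livers and muscles were fitted separately for the 6 pairs of species, and together for tissues and interactions. Replicates are separate fish. All members were named, and from each pathway list up to 4 called genes a comparison with the smallest adjusted p. Some genes of these lists are not reported here and were left out of the list counts and medians. The members and lists were chosen with earlier results of these data known. Matching the libraries of 1 fish by its number, deviations from group means correlated at 0.092 to 0.160 within 11 fish and at -0.131 to -0.0333 between different fish. As groups of 2 or 3 fish were centred, the values between fish are tied to those within fish. Libraries of different species with the same number correlated at -0.068 to 0.158 in liver and at -0.0923 to 0.0838 in muscle. The fits were tested on simulated data. Python 3.11.15 was used for the rest. The table of differentially methylated regions and the member sequences were not used here, and how transcripts were combined into genes is not given in the sources used here.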

Additional observations from a re-analysis of the deposited data

Results flagged for a closer look

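For 5 pathway genes the difference between species was not the same in liver as in muscle, by the interaction term of limma over all 20549 genes (adjusted p under 0.01, where 9.49% of genes passed in at least 1 pair). Of 9 methyl donor cycle genes tested, 2 passed for DL-MZ, 3 for DL-PG and 1 for RL-PG. Among all genes 3.16%, 4.9% and 4.62% did. Of 13 excision repair genes tested, 1 passed for DL-MZ and 1 for MZ-PG, against 3.16% and 1.37% of all genes. No gene of the other pathway lists passed in any pair. Whether these shares differ from those of all genes was not tested. Each value below is the liver difference minus the muscle difference on the log2 scale. mthfd1 gave 2.76 ± 0.41 for DL-MZ (adjusted p = 0.000329) and 3.07 ± 0.41 for DL-PG (adjusted p = 7.41e-05). shmt1 gave 2.55 ± 0.47 for DL-PG (adjusted p = 0.00143) and 2.46 ± 0.50 for RL-PG (adjusted p = 0.00351). ahcy gave 2.29 ± 0.46 for DL-MZ (adjusted p = 0.004) and ahcyl1, a relative of ahcy, 1.63 ± 0.36 for DL-PG (adjusted p = 0.00605). neil3 gave 2.74 ± 0.38 for DL-MZ (adjusted p = 0.000151) and -2.81 ± 0.38 for MZ-PG (adjusted p = 0.000262), with MZ muscles standing above DL and PG muscles. Of the 5 hepatocyte markers tested, apob and hnf4a passed with positive values for DL-MZ (2.77 and 1.94), DL-PG (3.57 and 2.65) and RL-PG (1.57 and 1.87), and their part in these results was not tested. None of the 4 tested members (tet2, uhrf2, dnmt3a and dnmt1) was among the genes that passed.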

How the results depend on the processing

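Alternatives were another pseudocount (0.1 or 0.5), no filter or a mean of at least 5 TPM, quantile normalisation, median ratio scaling, no variance trend, an adjusted p under 0.05, a replicate block, each pair of species alone, and leaving out each library. Members called between species in muscle went from 0 to 2 at an adjusted p under 0.05 and to 1 with a mean of at least 5 TPM, and the liver and interaction counts stayed at 0. Members called between liver and muscle went from 2 to 3 at an adjusted p under 0.05 (uhrf2 added), to 1 with a mean of at least 5 TPM (dnmt1 and dnmt3a then not tested), to 1 after quantile normalisation and to 0 after median ratio scaling, and were 1 to 3 with a library left out. Within MZ the count went from 1 to 0 under both rescalings and was 0 to 1 with a library left out. Within PG it went from 0 to 1 at an adjusted p under 0.05. With the fish as a replicate block, tet2 was at -0.89 (limma adjusted p = 4e-05) and dnmt3a at -0.66 (adjusted p = 0.0031), and no member's call changed. Differences that changed sign were dnmt1 (0.10 quantile, 0.11 median ratio), uhrf2 (0.048 median ratio), tet2 in PG (0.18 median ratio, and -0.41 to 0.0045 with a library left out) and kmt2b (0.10 median ratio). Median ratio scaling together with leaving out MZ liver replicate 1, chosen after seeing the data, gave 0 members called between liver and muscle and 0 within MZ, and signs turned for uhrf2 (0.10), dnmt1 (0.13), tet2 in PG (0.18), kdm2a (0.016) and kmt2b (0.11). Where an RL liver was left out, the other was taken to vary like the remaining groups. The causes were not tested. Of 22 member differences selected for this comparison, some of them not printed above, 13 kept their direction and side of the threshold under every alternative. Among these 13, only the liver-muscle difference of tet2 in DL had passed the test, and the rest stayed short of the threshold throughout. No liver-muscle difference over the mean of the species was among the 13. Counts of differentially methylated regions at member genes, were not run. The reads behind each value are unknown, and 2 or 3 fish a group limit the precision.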
